A study of Mus musculus with 6 samples.

Results

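The genes described here are the ligands and receptors of axon guidance: the ephrins and their Eph receptors, semaphorins of classes 3 to 7 with their plexin and neuropilin receptors, the Slits and Robos, and the netrins with Unc5 and Dcc. They were taken by a rule on gene symbols among the protein-coding genes of the count table, which gave 72 members out of 52550 genes, of which 21819 were protein-coding. The rule uses no values, but it was chosen with earlier results of these data known. There were 20 semaphorins, 14 Eph receptors, 12 genes of the netrin group, 11 plexins and neuropilins, 8 ephrins and 7 Slits and Robos. Unc50 and Unc5cl share the letters of the Unc5 family but are not among the known netrin receptors, and they were kept because the symbol rule takes them. In the splicing table these symbols held 227 of 40961 events, in 59 of the 72 genes.

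Hippocampal RNA was sequenced in 3 control samples and 3 samples of the L-DL KD group. L-DL is the long isoform of hnRNP D-like, an RNA-binding protein encoded by Hnrnpdl. The study asked how knockdown of L-DL alters RNA splicing in the brain. By the study's methods these were male C57BL/6 J mice, injected at 8 weeks of age into CA1 on both sides with an adeno-associated virus (AAV) carrying control shRNA or L-DL shRNA. Control mice are labelled wild type although they too received a virus, and the L-DL KD mice are labelled both hnRNP DL-/- and hnRNP DL KD. The shRNAs were driven by H1 promoters, which are not restricted to a cell type, and the CamkIIα promoter in the vector drove only the zsGreen marker. The stated titre of the control virus was higher than that of the L-DL virus, so virus dose and knockdown cannot be told apart, and whole hippocampus was labelled as the source although CA1 alone was injected. No source says whether the 3 libraries of a group came from separate mice, so the p-values measure only the spread between these samples, which may be technical.

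Axon guidance molecules steer growing axons by attraction and repulsion, and in the adult hippocampus many of them stay expressed at synapses, in glia and in vessels. Ephrins are bound to the membrane and signal through Eph receptor tyrosine kinases on the neighbouring cell. Semaphorins act through plexins, and most secreted class 3 semaphorins need a neuropilin as co-receptor. Slits are secreted ligands of the Robo receptors, and netrin-1 attracts axons through Dcc and repels them through Unc5 receptors.

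The libraries held 16052529 to 17913064 counts. Hnrnpdl itself stood at 176, 184 and 171 CPM (counts scaled to the size of the library) in control replicates 1 to 3 and at 217, 150.3 and 173 CPM in L-DL KD replicates 1 to 3, so the gene count did not separate the groups (log2 fold change 0.03 ± 0.12 SE, adjusted p = 0.898). This count pools the RNA of all isoforms of the gene and is not a measure of L-DL alone. The study assessed the knockdown as L-DL protein, by immunoblotting of injected hippocampus, which is an unlike measure. Whether that was done on the sequenced samples is not stated. The 3 libraries of the knockdown group are called KD-labelled below. On the second principal component, with 19.5% of the variance, L-DL KD replicate 1 stood apart from L-DL KD replicates 2 and 3. Cell type markers moved with the labels: 12 of 12 microglia and macrophage markers were higher in the KD-labelled libraries (summed level 3047 to 3989.8 against 1452 to 1814 CPM), as were 5 of 6 mural and meningeal, 4 of 7 endothelial and 4 of 4 oligodendrocyte precursor markers. Neuron markers were lower in 9 of 11 and higher in 2 of 11 (summed level 3800.2 to 4425 against 5515 to 5871 CPM), CA3 markers lower in 3 of 4, and CA1 markers lower in 4 of 6 and higher in 1. Astrocyte markers were lower in 3 of 7 and higher in 1, dentate granule markers lower in 2 of 5 and higher in 1, oligodendrocyte markers higher in 1 of 8 and T and plasma cell markers lower in 1 of 7. None of 5 choroid plexus and ependyma markers passed, but their summed level ran from 67.8 CPM in L-DL KD replicate 3 to 5085 CPM in L-DL KD replicate 1, and from 453 to 4515 CPM in the controls. No marker of any list was at 0 in all libraries. The part of these shifts in the values of the members was not tested, and in bulk tissue fewer cells of a type and less RNA per cell cannot be told apart.

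All 72 members passed the filter on low counts (at least 10 counts in at least 3 libraries), 1 of them, Efna4, only through the KD-labelled libraries. Of the 72, 19 were higher and 14 lower in those libraries at an adjusted p under 0.05 (edgeR quasi-likelihood fit, Benjamini-Hochberg method over the 17621 genes tested), and 39 did not pass. The 33 called members are 45.8% of the 72, against 30.5% of all genes tested. By direction, 26.4% of the members against 15.6% of all genes were higher and 19.4% against 15.0% were lower. Groups did not overlap for 39 of 72 members (Efna4 among them), 54.2% against 47.2% of all genes, and Plxnb3 was the only called member whose groups overlapped. The median log2 fold change was 0.05 over the members and 0.01 over all genes, and the median size of the change was 0.36 against 0.30. A set of 19 members kept the call in each of 11 refits with another setting or with a library left out, 12 higher and 7 lower. The share of all genes that kept the call in every refit was not computed, so the 19 have no background to be read against.

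**Figure D1:**
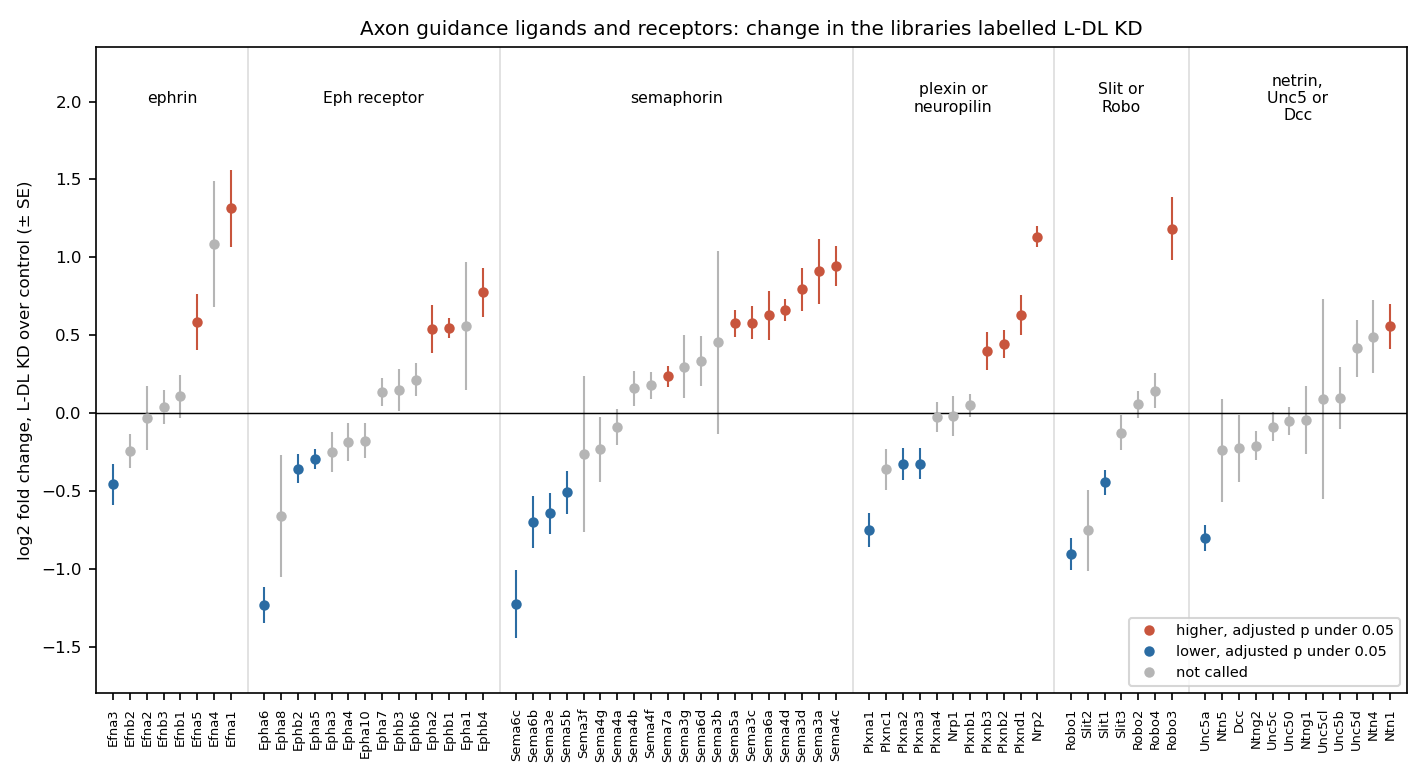
Log2 fold change (KD-labelled libraries over control, vertical axis, bars are SE of the edgeR fit) of the 72 members, ordered within each family. Each family held members on both sides of 0, and the called ones ran from -1.23 for Epha6 to 1.31 for Efna1.

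The splicing table gives, for each event, the junction reads of the form that includes a segment and of the form that skips it, from which the inclusion level, PSI, was computed. Of the 227 member events, 70 in 33 members had enough reads to be tested (a mean of at least 20 junction counts per library and of at least 1 count of each form). None of the member events had an adjusted p under 0.05 when junction counts were tested in edgeR, where 48 of all 18829 events (0.255%) did, and the limma alternative called none of the members either. At an unadjusted p under 0.05 there were 7 of 70 member events in 6 genes, a share below the 13.3% of all events. The number was 4 without control replicate 1 and 4 without control replicate 3. PSI did not overlap between groups in 16 of 70 member events, 22.9% against 18.4% of all events. The events with the smallest p are described with their genes below, and their single values are descriptions that did not pass the adjusted test.

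Among the Slits and Robos, Robo3 was higher and Robo1 and Slit1 were lower in the KD-labelled libraries, and 4 of 7 did not pass. Robo3, the divergent Robo receptor that lets commissural axons reach the midline, lies at chr9:37415669-37433246 (GRCm38, minus strand). It stood at 51.03, 56.5 and 67.6 CPM in control replicates 1 to 3 and at 141, 165 and 92.02 CPM in L-DL KD replicates 1 to 3. The lowest KD-labelled library, replicate 3, was still above the highest control, and the level was 2.27-fold that of the controls (log2 fold change 1.18 ± 0.20 SE, adjusted p = 0.00398). Robo1, a Slit receptor that signals repulsion, went the other way. Its levels were 66.3, 67.7 and 66.99 CPM in the controls and 38.7, 30.3 and 38.2 CPM in the KD-labelled libraries, a log2 fold change of -0.91 ± 0.10 (SE, adjusted p = 0.000647). The 3 control values lay within 2 CPM of each other and well above all 3 others.

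Slit1, a secreted Robo ligand, had the highest control level per length of all members, 46.4 CPM per kb of exon. Its level was 268, 269.8 and 286 CPM in the controls and 181, 218 and 205 CPM in the KD-labelled libraries, with a log2 fold change of -0.44 ± 0.08 (SE, adjusted p = 0.0053). Slit2, a ligand of the same family, did not pass the test. It stood at 32.7, 27.1 and 38.04 CPM in the controls and at 28.04, 16.3 and 13.5 CPM in L-DL KD replicates 1 to 3, where replicate 1 overlapped the controls (log2 fold change -0.75 ± 0.26 SE, adjusted p = 0.0609). Without L-DL KD replicate 1 the log2 fold change of Slit2 was -1.12 and the adjusted p 0.000981, and DESeq2 on all libraries gave 0.00859. In 8 of the 11 refits Slit2 stayed uncalled. Its log2 fold change was as small as -0.55 and its adjusted p as high as 0.183 over the 11. Robo2, Robo4 and Slit3 had log2 fold changes of 0.06, 0.14 and -0.13 and did not pass.

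Splicing of Robo2 and Robo3 held the smallest p-values among the member events. In Robo2 the event was an exon of 273 nt, exon 26 of 28 of the transcript Robo2-203, at chr16:73898912-73899184 (GRCm38, minus strand), all of it coding and a whole number of codons (91). It is shown 5′ to 3′ because it had the smallest p of all member events, with the exon in capitals and 10 bases of each neighbouring exon in lower case.
Robo2 exon: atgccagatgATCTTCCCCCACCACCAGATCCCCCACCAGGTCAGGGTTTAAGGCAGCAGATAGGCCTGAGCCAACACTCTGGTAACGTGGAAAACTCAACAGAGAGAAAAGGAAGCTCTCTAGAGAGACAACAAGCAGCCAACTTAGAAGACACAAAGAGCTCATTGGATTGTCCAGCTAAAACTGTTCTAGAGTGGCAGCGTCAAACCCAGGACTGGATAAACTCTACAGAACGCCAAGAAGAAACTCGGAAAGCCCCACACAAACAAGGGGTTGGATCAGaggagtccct
Robo2 PSI was 0.369, 0.642 and 0.508 in the 3 controls and 0.209, 0.154 and 0.174 in the 3 KD-labelled libraries, in the order the splicing table lists them. The mean was 0.506 ± 0.137 in the controls and 0.179 ± 0.0276 in the KD-labelled libraries (SD), so the exon was included in a smaller share of junction reads there, a difference of -0.327 (edgeR adjusted p = 0.114). The groups did not overlap, and 64 to 101 junction reads stood behind each value. The level of Robo2 did not pass the test, at 75.3, 80.4 and 89.03 CPM in the controls and 90.6, 85.3 and 78.2 CPM in the KD-labelled libraries (log2 fold change 0.06 ± 0.09 SE, adjusted p = 0.676).

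In Robo3 the event was a retained intron of 405 nt, intron 25 of 26 of the transcript Robo3-201, at chr9:37416921-37417325 (GRCm38, minus strand). Robo3 is known for isoforms that differ in their C-terminal tail by retention of an intron near the 3′ end, although this intron was not matched to those isoforms here. Read on from the upstream exon in the frame of Robo3-201, the intron meets a stop codon at its bases 129 to 131. The sequence runs from 10 bases of the upstream exon to 10 bases past that stop codon, which is in capitals.
Robo3 intron start: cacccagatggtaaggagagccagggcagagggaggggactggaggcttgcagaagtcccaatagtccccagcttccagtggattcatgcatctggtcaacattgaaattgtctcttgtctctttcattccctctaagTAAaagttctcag
Robo3 intron PSI was 0.542, 0.788 and 0.742 in the controls and 0.329, 0.415 and 0.392 in the KD-labelled libraries. The mean was 0.691 ± 0.131 in the controls and 0.379 ± 0.0445 in the KD-labelled libraries (SD), a difference of -0.312 (edgeR adjusted p = 0.155), with no overlap between groups. Reads of the spliced junction numbered 27, 9 and 8 in the controls and 102, 91 and 45 in the KD-labelled libraries, and reads into the intron numbered 64, 67 and 46 against 100, 129 and 58. The spliced reads did not overlap between the groups, while the intron reads of the third KD-labelled library lay within the control range. Of the other tested Robo3 events, a pair also includes this intron but sets it against forms with other ends, and in both the groups overlapped. Their mean PSI was 0.983 ± 0.0289 in the controls and 0.922 ± 0.136 in the KD-labelled libraries (SD) for the retained intron that extends into the next one, and 0.992 ± 0.0146 in the controls and 0.967 ± 0.0577 in the KD-labelled libraries (SD) for the alternative 3′ splice site.

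**Figure D2:**
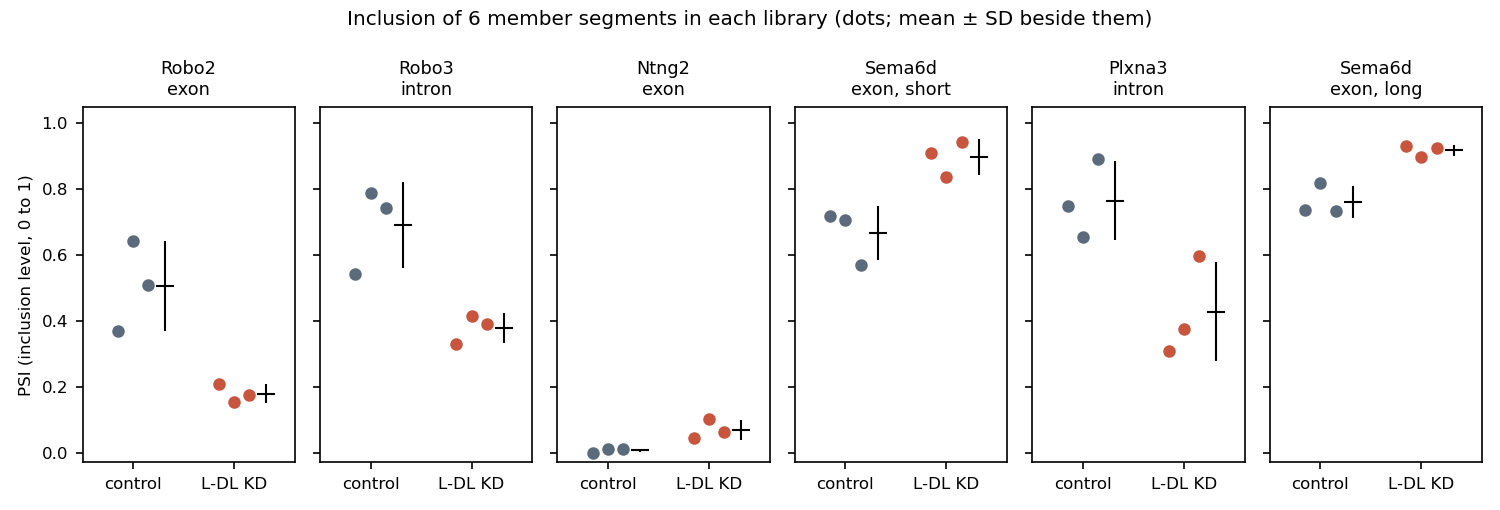
PSI (inclusion level from 0 to 1, vertical axis) of the 6 member segments with the smallest p, 1 dot per library with mean ± SD beside the dots, in control libraries and KD-labelled libraries. No panel shows overlapping groups, and none of the 6 passed the adjusted test.

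Of the 8 ephrins, Efna1 and Efna5 were higher, Efna3 was lower and 5 did not pass. Efna1, a GPI-anchored ligand of EphA receptors first known from endothelial cells, lies at chr3:89271733-89281142 (GRCm38, minus strand) and had the largest rise of all members. Its levels were 4.44, 4.47 and 3.43 CPM in the controls and 13.2, 7.12 and 10.4 CPM in L-DL KD replicates 1 to 3. Every KD-labelled library exceeded every control, the mean level was 2.49-fold that of the controls and the log2 fold change was 1.31 ± 0.25 (SE, adjusted p = 0.00605). Efna5, another ligand of EphA receptors, stood at 5.55, 4.77 and 6.16 CPM against 8.76, 7.01 and 8.94 CPM, a log2 fold change of 0.58 ± 0.18 (SE, adjusted p = 0.0398). Efna5 lost the call without any of control replicates 1, 2 and 3 or L-DL KD replicates 1 and 3, with adjusted p = 0.102, 0.136, 0.0622, 0.0683 and 0.103 in that order.

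Efnb3, a transmembrane ligand of EphB receptors, had the highest control level per length among the ephrins (45.6 CPM per kb). It stood at 158, 141 and 136 CPM in the controls and at 172, 142 and 132 CPM in the KD-labelled libraries. These ranges overlapped (log2 fold change 0.04 ± 0.11 SE, adjusted p = 0.822), and Efnb1 and Efnb2 did not pass either, so none of the 3 B ephrins was called. Efna3 had a log2 fold change of -0.46 ± 0.13 (SE, adjusted p = 0.0319), and 14.1% of its exon bases overlap Gm15998 on the opposite strand. The call of Efna3 was lost without control replicate 1, control replicate 2 or L-DL KD replicate 2 (adjusted p = 0.066 to 0.113). Since no source says whether counting used strand, reads of such overlapping genes cannot be told apart. Efna4, listed at 6 to 7 counts per control library, passed the filter only through the KD-labelled libraries, where it was higher. Its log2 fold change of 1.09 ± 0.40 (SE, adjusted p = 0.076) is therefore a description only.

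Among the 14 Eph receptors, 3 were higher (Ephb1, Ephb4, Epha2), 3 lower (Epha6, Epha5, Ephb2) and 8 did not pass. Epha6, an EphA receptor of the nervous system at chr16:59653483-60605531 (GRCm38, minus strand), had the largest fall of all members. It stood at 40.3, 35.9 and 41.6 CPM in the controls and at 16.5, 18.8 and 14.8 CPM in the KD-labelled libraries. Every KD-labelled library was below every control, and the log2 fold change was -1.23 ± 0.12 (SE, adjusted p = 0.000344). Ephb1, a receptor for B ephrins, rose with little spread in either group. It was measured at 47.5, 49.1 and 49.9 CPM against 70.4, 70.1 and 73.01 CPM, a log2 fold change of 0.54 ± 0.06 (SE, adjusted p = 0.000794).

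Ephb4, the receptor of ephrin-B2 known from venous endothelium, stood at 10.2, 10.2 and 10.1 CPM in the controls and at 19.2, 13.6 and 19.2 CPM in the KD-labelled libraries (log2 fold change 0.77 ± 0.16 SE, adjusted p = 0.00837). The groups did not overlap, and endothelial markers were higher in the same libraries (summed level 333.3 to 391.8 against 259.9 to 283.4 CPM). Their part in the value of Ephb4 was not tested. Epha2, a receptor of ephrin-A1 best known in epithelia, stood at 5.12, 5.65 and 5.59 CPM against 8.48, 7.29 and 8.05 CPM, a log2 fold change of 0.54 ± 0.15 (SE, adjusted p = 0.0302). Its call was lost without any single library other than L-DL KD replicate 2, with adjusted p = 0.0999, 0.0784 and 0.0774 without control replicates 1, 2 and 3 and 0.059 and 0.0694 without L-DL KD replicates 1 and 3. Epha4, a receptor of both ephrin classes that holds back spine growth at hippocampal synapses, had the highest control level of the family (39.4 CPM per kb). It stood at 312, 313 and 326 CPM in the controls and at 321, 291 and 224 CPM in L-DL KD replicates 1 to 3, which overlapped (log2 fold change -0.19 ± 0.12 SE, adjusted p = 0.29). The log2 fold change of Epha4 ran from -0.30 to -0.05 over the 11 refits, none of which called it. Epha5 and Ephb2 had log2 fold changes of -0.30 (adjusted p = 0.0102) and -0.36 (adjusted p = 0.0219). Epha5 lost the call without control replicate 2 (adjusted p = 0.0507), and Ephb2 without control replicate 2 or 3 or L-DL KD replicate 2 or 3 (adjusted p = 0.0618 to 0.0807).

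**Figure D3:**
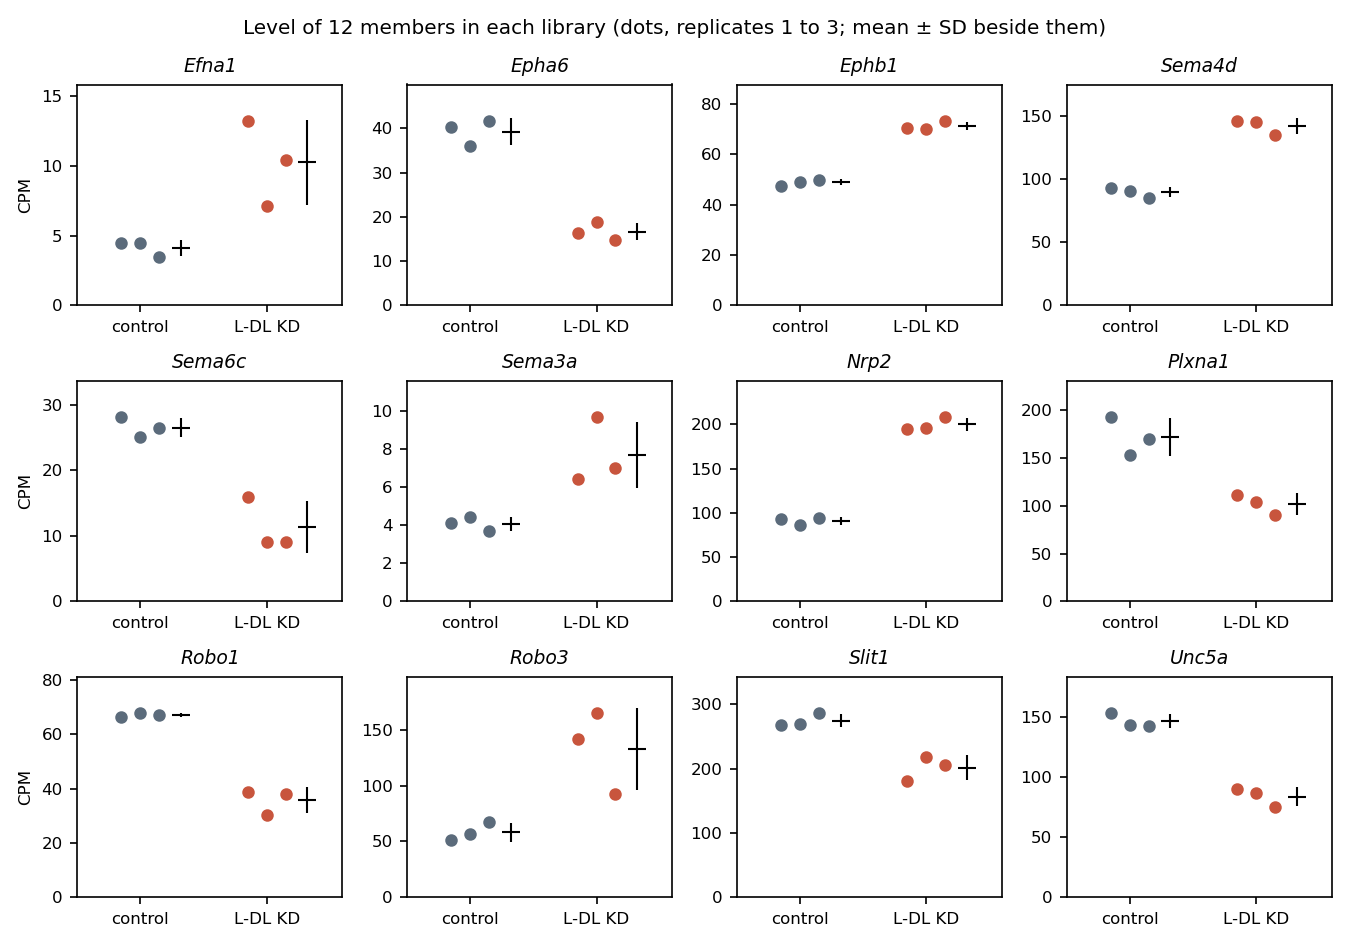
CPM (vertical axis, from 0) of 12 members in each of the 6 libraries, with mean ± SD (n = 3) beside the dots. All 12 were picked from the called members, so that no panel shows overlapping groups follows from the choice. Groups did not overlap for 54.2% of the members and 47.2% of all genes.

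Of the 20 semaphorins, 8 were higher, 4 lower and 8 did not pass, with a median log2 fold change of 0.27. Class 3, the secreted semaphorins, had 3 of 7 higher and 1 lower. Sema3a, a repellent that binds neuropilin-1, was rare, at 4.13, 4.41 and 3.68 CPM in the controls and 6.39, 9.64 and 6.97 CPM in the KD-labelled libraries. The groups did not overlap (log2 fold change 0.91 ± 0.21 SE, adjusted p = 0.0132), but without control replicate 3 the adjusted p was 0.0545. Sema3d, a secreted relative, stood at 11.03, 12.7 and 12.6 CPM against 21.1, 23.6 and 18.2 CPM, a log2 fold change of 0.79 ± 0.14 (SE, adjusted p = 0.00395). Sema3c, which binds both neuropilins, stood at 28.5, 33.2 and 35.4 CPM against 48.9, 51.8 and 44.4 CPM, a log2 fold change of 0.58 ± 0.11 (SE, adjusted p = 0.00502). All 3 of these ligands were thus higher in every KD-labelled library than in any control.

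Sema3e, which binds plexin-D1 without a neuropilin, was the class 3 member that fell. Its level was 48.8, 54.7 and 56.8 CPM in the controls and 40.00, 34.5 and 28.1 CPM in the KD-labelled libraries, with a log2 fold change of -0.64 ± 0.13 (SE, adjusted p = 0.00805). Its receptor gene Plxnd1 rose, as described with the plexins. Sema3b, Sema3f and Sema3g had log2 fold changes of 0.45, -0.27 and 0.30 and did not pass.

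In class 4, the transmembrane semaphorins that act on B plexins, Sema4d and Sema4c were higher and none of the 6 was called lower. Sema4d, a plexin-B1 ligand made by oligodendrocytes and immune cells, stood at 92.7, 90.7 and 84.9 CPM in the controls and at 146, 145 and 134 CPM in the KD-labelled libraries. Its log2 fold change was 0.66 ± 0.07 (SE, adjusted p = 0.000477), and neither group spread by more than 12 CPM. Sema4c, a plexin-B2 ligand, nearly doubled, from 15.96, 14.4 and 15.4 CPM to 31.4, 24.7 and 31.8 CPM (log2 fold change 0.94 ± 0.13 SE, adjusted p = 0.00146). Exons of D430040D24Rik on the opposite strand overlap 7.3% of its exon bases. Microglia and macrophage markers were higher in the same libraries, by a median log2 fold change of 1.04 over the 12, and their part in these values was not tested.

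Among classes 5 to 7, which are bound to the membrane, Sema5a and Sema6a rose and Sema5b, Sema6b and Sema6c fell. Sema5a, which carries thrombospondin repeats, stood at 132, 148 and 160.0 CPM in the controls and at 218, 228 and 209 CPM in the KD-labelled libraries (log2 fold change 0.57 ± 0.08 SE, adjusted p = 0.002). Sema6c, whose class acts on A plexins, lies at chr3:95160457-95174024 (GRCm38, plus strand). It stood at 28.1, 25.1 and 26.4 CPM against 15.9, 9.14 and 8.999 CPM, where L-DL KD replicate 1 was highest of its group but below every control (log2 fold change -1.23 ± 0.22 SE, adjusted p = 0.00472). Sema6b, Sema5b and Sema6a had log2 fold changes of -0.70, -0.51 and 0.63, with adjusted p = 0.0157, 0.0248 and 0.0182. Sema6b lost the call without control replicate 1 or L-DL KD replicate 2 (adjusted p = 0.0585 to 0.0636), Sema6a without control replicate 1, 2 or 3 (adjusted p = 0.0507 to 0.0714), and Sema5b without any single library other than L-DL KD replicate 1 (adjusted p = 0.0607 to 0.085). Sema7a, a GPI-anchored ligand of plexin-C1 and integrins, had the highest control level of the semaphorins (39.3 CPM per kb). Its levels of 132, 126 and 131 CPM and 162, 151 and 144 CPM gave a small log2 fold change of 0.24 ± 0.07 (SE, adjusted p = 0.0328). That call was lost without control replicate 1, 2 or 3 (adjusted p = 0.0824, 0.125 and 0.0893) and without L-DL KD replicate 2 (0.0631).

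Sema6d, a transmembrane class 6 ligand of plexin-A1 and plexin-A4, did not pass the expression test (log2 fold change 0.33 ± 0.16 SE, adjusted p = 0.154) but held a pair of exon events with small p. They are a short and a long form of the same coding exon, exon 18 of 19 of Sema6d-207 (156 nt, chr2:124662204-124662359, GRCm38, plus strand) and of Sema6d-206 (168 nt, ending at 124662371). The long form is shown with 10 bases of each neighbouring exon, and its 12 extra bases, which keep the reading frame, are in capitals.
Sema6d exon, long form: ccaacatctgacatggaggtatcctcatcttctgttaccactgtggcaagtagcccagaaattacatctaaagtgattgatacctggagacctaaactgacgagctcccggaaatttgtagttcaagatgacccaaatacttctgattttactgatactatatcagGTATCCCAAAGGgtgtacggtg
PSI of the short form was 0.720, 0.706 and 0.571 in the controls and 0.909, 0.838 and 0.944 in the KD-labelled libraries, a difference of 0.231 (edgeR adjusted p = 0.339). For the long form it was 0.736, 0.818 and 0.733 and 0.931, 0.898 and 0.926, a difference of 0.156 (edgeR adjusted p = 0.369). Without form lengths the differences were 0.148 for the short and 0.0928 for the long form. In these events both forms were included in a larger share of reads in the KD-labelled libraries, with no overlap. They are not independent, since both are set against skipping of the same exon, and at 22 to 43 junction reads for the short form the skipping reads were 7 or fewer in every library. A further tested event sets the long form between another upstream exon and the same downstream exon start, with 58 to 109 junction reads, and its difference had the other sign. Its PSI was 0.731, 0.524 and 0.590 in the controls and 0.620, 0.603 and 0.457 in the KD-labelled libraries, which overlapped, a difference of -0.0551 (edgeR adjusted p = 0.895).

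Of the 11 plexins and neuropilins, 4 were higher, 3 lower and 4 did not pass. Nrp2, the co-receptor of Sema3f and Sema3c that guides mossy fibres in the developing hippocampus, lies at chr1:62703285-62818695 (GRCm38, plus strand) and had the smallest p of all members. It stood at 93.1, 85.9 and 94.1 CPM in the controls and at 195, 196 and 208 CPM in the KD-labelled libraries. No library was close to the other group, and the level was 2.19-fold that of the controls (log2 fold change 1.13 ± 0.07 SE, adjusted p = 8.37e-05). Nrp1, the co-receptor of Sema3a, stood at 76.4, 80.1 and 95.2 CPM against 68.9, 91.3 and 88.1 CPM, and its groups overlapped (log2 fold change -0.02 ± 0.13 SE, adjusted p = 0.926).

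The class A plexins, which signal with neuropilins or bind class 6 semaphorins, were lower in 3 of 4. Plxna1 stood at 193, 154 and 169.7 CPM in the controls and at 112, 105 and 89.9 CPM in the KD-labelled libraries, a log2 fold change of -0.75 ± 0.11 (SE, adjusted p = 0.00193). Exons of Gm26811 on the opposite strand overlap 10.7% of its exon bases. Plxna2 and Plxna3 had log2 fold changes of -0.33 (adjusted p = 0.0401) and -0.32 (adjusted p = 0.0374), and Plxna4 of -0.02 did not pass. Plxna2 lost the call without any single library other than control replicate 2 (adjusted p = 0.0504 to 0.13), and Plxna3 without any single library other than L-DL KD replicate 2 (adjusted p = 0.0549 to 0.123). Neuron markers were lower in the same libraries, by a median log2 fold change of -0.56 over the 11, and their part in these values was not tested.

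Plexins of the other classes moved up or did not pass. Plxnd1, the Sema3e receptor known from endothelium, stood at 52.5, 41.3 and 36.1 CPM against 65.3, 65.5 and 70.3 CPM, with no overlap (log2 fold change 0.63 ± 0.13 SE, adjusted p = 0.00839). Plxnb2, a receptor of class 4 semaphorins found on neural progenitors and microglia, had the highest control level of this family (21.6 CPM per kb). It stood at 159.8, 164 and 177 CPM in the controls and at 253, 206 and 222 CPM in the KD-labelled libraries, a log2 fold change of 0.44 ± 0.09 (SE, adjusted p = 0.00777). Plxnb3, a Sema5a receptor found in oligodendrocytes, had a log2 fold change of 0.40 ± 0.12 (SE, adjusted p = 0.0424), and its L-DL KD replicate 3 lay inside the control range. Its call was lost without any single library other than L-DL KD replicate 3 (adjusted p = 0.0569 to 0.147). Plxnb1 and Plxnc1 did not pass.

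Plxna3 also held a retained intron among the events with small p, intron 10 of 32 of Plxna3-201, 140 nt at chrX:74335158-74335297 (GRCm38, plus strand). Its length is not a multiple of 3, so reading through it changes the frame downstream. It is shown in capitals with 10 bases of each neighbouring exon, because it had the largest PSI difference of the events described.
Plxna3 intron: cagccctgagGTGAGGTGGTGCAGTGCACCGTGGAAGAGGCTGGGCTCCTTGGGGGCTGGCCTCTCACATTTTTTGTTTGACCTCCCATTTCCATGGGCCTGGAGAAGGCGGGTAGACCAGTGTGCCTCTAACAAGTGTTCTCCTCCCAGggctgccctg
PSI was 0.748, 0.655 and 0.892 in the controls and 0.310, 0.376 and 0.597 in the KD-labelled libraries, a difference of -0.338 (edgeR adjusted p = 0.367). The intron was retained in a smaller share of reads in all 3 of the latter, but only 13 to 28 junction reads stood behind each value.

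In the netrin group 1 of 12 was higher, 1 was lower and 10 did not pass. Unc5a, a netrin receptor for repulsion that can also trigger cell death without its ligand, had the highest control level of the group (35.04 CPM per kb). It stood at 153, 143 and 142 CPM in the controls and at 89.7, 86.7 and 74.7 CPM in the KD-labelled libraries. The 2 ranges were far apart (log2 fold change -0.80 ± 0.08 SE, adjusted p = 0.000488), while Unc5b, Unc5c and Unc5d had log2 fold changes of 0.09, -0.09 and 0.41 and did not pass. Ntn1, the secreted netrin, was at 10.8, 9.94 and 9.398 CPM against 16.4, 12.6 and 15.3 CPM, a log2 fold change of 0.56 ± 0.14 (SE, adjusted p = 0.0206). The call of Ntn1 was lost without control replicate 2 (adjusted p = 0.0701), control replicate 3 (0.0787) or L-DL KD replicate 3 (0.0522). Dcc, the receptor for attraction, was rare per length (0.865 CPM per kb) and stood at 10.8, 10.7 and 12.6 CPM in the controls and at 9.26, 12.8 and 7.15 CPM in the KD-labelled libraries, which overlapped (log2 fold change -0.23 ± 0.21 SE, adjusted p = 0.463). The log2 fold change of Dcc ran from -0.46 to -0.05 over the 11 refits, none of which called it.

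Ntng2 encodes netrin-G2, a GPI-anchored netrin that binds the synaptic ligand family NGL and not Dcc. Its level did not pass (log2 fold change -0.21 ± 0.09 SE, adjusted p = 0.124), and 14.0% of its exon bases are shared with 6530402F18Rik on the same strand. The event was a coding exon of 102 nt, exon 5 of 8 of Ntng2-203, at chr2:29198814-29198915 (GRCm38, minus strand). It is shown in capitals with 10 bases of each neighbouring exon, because it was nearly absent from the control reads.
Ntng2 exon: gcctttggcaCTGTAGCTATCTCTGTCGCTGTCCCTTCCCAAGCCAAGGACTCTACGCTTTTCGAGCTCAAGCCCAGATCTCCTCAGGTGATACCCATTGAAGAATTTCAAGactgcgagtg
Reads that include the exon numbered 0, 1 and 1 in the controls and 3, 7 and 4 in the KD-labelled libraries, against 79, 57 and 63 and 40, 37 and 36 reads that skip it. PSI was therefore 0, 0.0103 and 0.00937 and 0.0428, 0.101 and 0.0621, a difference of 0.0622 (edgeR adjusted p = 0.179), which rests on 16 inclusion reads in all. Without form lengths the difference was 0.0987. The last event with an unadjusted p under 0.05, named here only to complete the 7, was an exon of Epha10 with a PSI difference of 0.0326 (edgeR adjusted p = 0.375), whose groups overlapped.

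**Figure D4:**
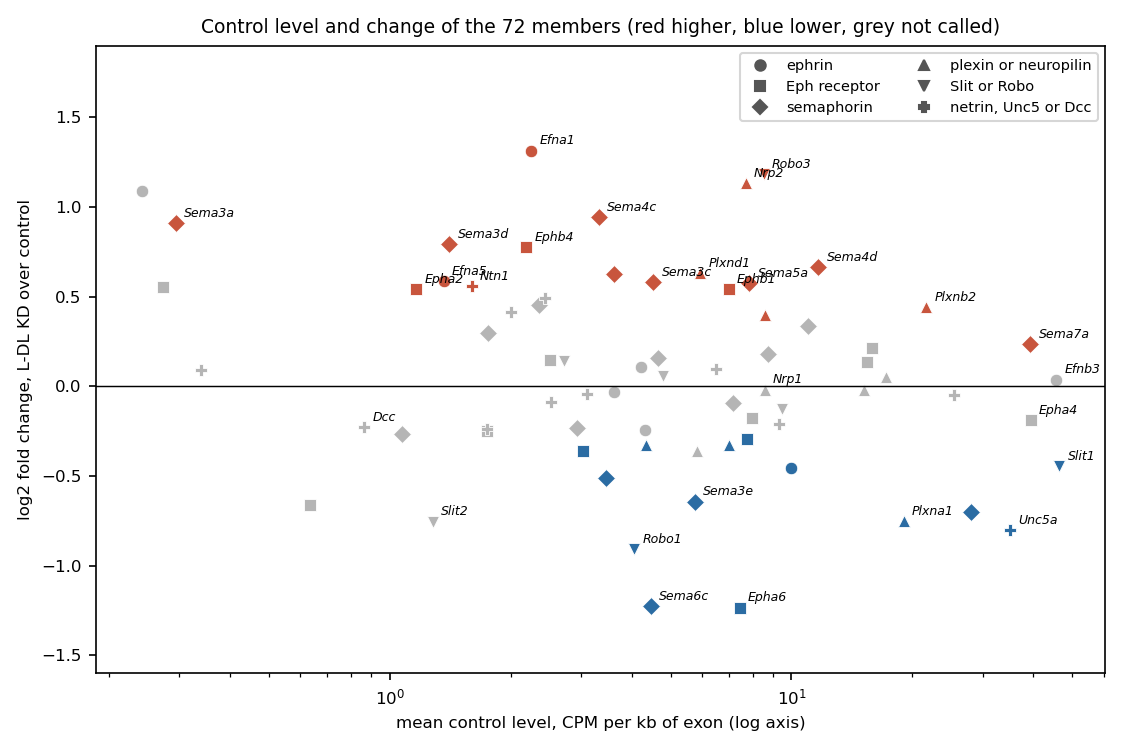
Mean control level per kb of exon (horizontal log axis, CPM per kb) against the log2 fold change (KD-labelled libraries over control) of the 72 members, with a marker shape for each family and the named members labelled. The 4 highest members, Slit1, Efnb3, Epha4 and Sema7a, changed by -0.44, 0.04, -0.19 and 0.24, all smaller than the 5 changes over 1 in size that passed.

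Levels per length spread widely over the members, from 0.242 CPM per kb for Efna4 to 46.4 CPM per kb for Slit1, with a median of 4.60 CPM per kb in the controls. Changes of at least 1 on the log2 scale that passed were found for Efna1, Epha6, Sema6c, Nrp2 and Robo3, whose control levels lay between 2.25 and 8.53 CPM per kb.

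Beside the ligands and receptors, 74 genes that work with them (such as cytoplasmic adaptors and other guidance receptors) were read from the same fit. All 74 were tested, 15 were higher, 26 lower and 33 did not pass, with a median log2 fold change of -0.08. That is 55.4% called, against 30.5% of all genes tested. The list of partners was chosen with earlier results of these data known, and it was not matched to all genes by level. The higher share therefore cannot show whether the pathway as a whole changed more than other genes. Of those with the smallest p that rose, Vav2, a GTPase activator recruited by Eph receptors, stood at 23.7, 25.9 and 23.8 CPM in the controls and at 42.8, 46.8 and 48.04 CPM in the KD-labelled libraries (log2 fold change 0.91 ± 0.09 SE, adjusted p = 0.00035). Tiam1, an activator of Rac, had a log2 fold change of 0.79, Rgma, a repulsive ligand of neogenin, of 0.66, Srgap2, a GTPase regulator named for its Slit and Robo link, of 0.57, and Fes, a kinase tied to semaphorin 3A signalling, of 1.11.

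Of the partners that fell, Chn1, the Rac inhibitor alpha-chimaerin that acts below Epha4, stood at 367, 366 and 355 CPM in the controls and at 233, 210.0 and 184 CPM in the KD-labelled libraries (log2 fold change -0.80 ± 0.09 SE, adjusted p = 0.00066). Dpysl2, which encodes the semaphorin 3A mediator CRMP2, had a log2 fold change of -0.69, Dscaml1, an adhesion molecule related to the netrin receptor Dscam, of -0.88, Srgap3 of -0.56 and the kinase gene Abl2 of -0.53. Srgap2 and Srgap3, close relatives, thus moved in opposite directions. Each of these 10 partners had groups that did not overlap, which goes with their choice by smallest p. Groups did not overlap for 47.2% of all genes.

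**Figure D5:**
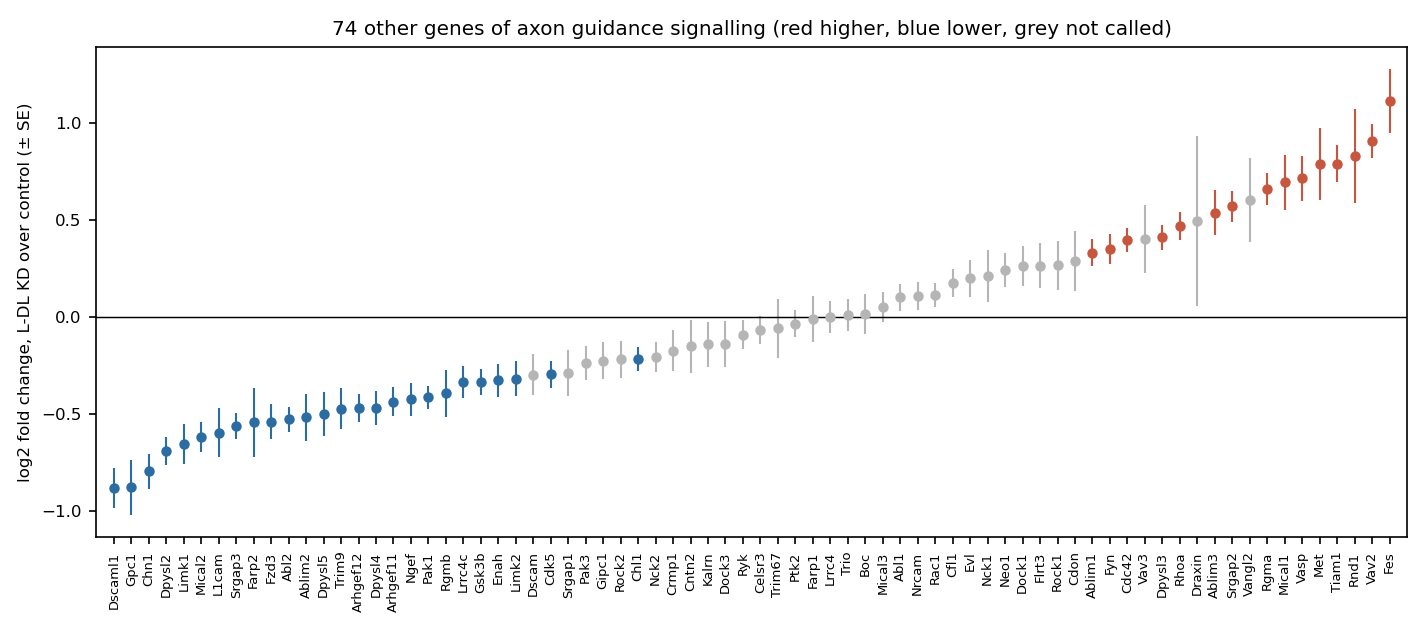
Log2 fold change (KD-labelled libraries over control, vertical axis, bars are SE of the edgeR fit) of the 74 other genes of axon guidance signalling, in order of the change. The called genes ran from -0.88 for Dscaml1 to 1.11 for Fes, 26 below 0 and 15 above.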

How the data were processed

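Gene expression and splicing were measured in 3 control and 3 L-DL KD samples of mouse hippocampus from oligo(dT)-enriched mRNA (150 nt read pairs). The authors deposited raw counts per Ensembl gene, with reads aligned to GRCm38, and the submitters' processing notes name HISAT2 2.1.0, Bowtie 1.1.2 and HTSeq 0.6.1 without saying which did what. Whether counting used strand is not given in the sources used here. The authors also deposited rMATS 4.1.0 junction counts for 5 kinds of splicing event with form lengths, and p-values, FDR and PSI differences of their own comparison, which were not used.

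Groups came from the sample titles. The splicing table numbers its groups 1 and 2, and group 1 was taken as L-DL KD from the study's definition of the PSI change. Deviations of each junction library correlated best with the same count library in 6 of 6 cases.

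The expression test was edgeR 4.0.16 in R 4.3.3 (TMM scaling, quasi-likelihood, group only) over the 17621 genes that reached 10 counts in 3 or more libraries, adjusted by Benjamini-Hochberg. CPM used TMM library sizes, and levels per kb used GENCODE M21 exon lengths. Fold changes are L-DL KD over control. Junction counts were tested in edgeR with an effect for each library and the change of inclusion between groups. PSI divided counts by form length. Both tests were tested on simulated data first. Alternatives were DESeq2 1.42.0, limma 3.58.1, other scaling, filters, a replicate block and each library left out.

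The members and gene lists were chosen with earlier results of these data known. Values by library are given for members past the test with a log2 fold change of at least 0.5 in size (at most the 8 smallest p per family), the highest member per kb in each family, 8 textbook members (Dcc, Ntn1, Slit2, Robo1, Nrp1, Plxna1, Epha4, Sema3a), the 6 events with the smallest p, and the 5 partners with the smallest p in each direction.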

Additional observations from a re-analysis of the deposited data

How the results depend on the processing

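The count of called members was 33, and between 22 and 33 with 1 library left out, 35 with DESeq2, 32 with library size scaling alone, 30 without a filter, 33 at a minimum of 50 counts and 24 when a log2 fold change of 0.5 in size was also asked. Over all genes the count was 5379, and between 3498 and 6477 with 1 library left out. It was 5525 with DESeq2, 5444 with library size scaling, 5265 without a filter, 5285 at 50 counts and 4635 with the replicate number as a block. Without L-DL KD replicate 1 the 33 called members were not the same 33. They shared 28 with the fit of all libraries, with 5 lost and 5 gained. The partners numbered 41 and between 31 and 46 with 1 library left out. Replicate numbers do not pair the samples by the labels, and deviations of same-numbered libraries correlated at 0.05, 0.13 and -0.11, so the numbers were treated as names. With the replicate number as a block, 26 members and 40 partners were called, and all 26 were among the 33. The 7 lost were Efna3, Epha2, Ephb2, Plxna2, Plxna3, Plxnb3 and Sema7a (adjusted p from 0.0514 for Ephb2 to 0.0845 for Plxnb3). Over the 319 refits of the 29 members named by the rule, 288 kept side and direction, 23 lost the call, 3 gained it (all Slit2) and 5 changed sign without being called. These were Efnb3, which ran from -0.075 to 0.12 with 1 library left out (below 0 without control replicate 3 and without L-DL KD replicate 1), and Nrp1, at 0.013 with library size scaling and from -0.087 to 0.10 with 1 library left out (above 0 without the same libraries). Without a low count filter, Efna5, Epha2, Plxna3 and Sema7a lost the call (adjusted p = 0.0651, 0.0748, 0.0631 and 0.0538) and Slit2 gained it. Library size scaling lost Plxna3 (adjusted p = 0.0525), and DESeq2 added Slit2 and Plxnc1. The 7 member events with an unadjusted p under 0.05 were 3 at a mean of 50 junction counts, where 41 were tested, 8 at 10, 8 with limma and 4 to 9 with 1 library left out, and none passed the adjusted test under any of these. The 6 events kept their direction in all 48 refits. PSI differences without form lengths moved by more than the replicate SD for Ntng2 (0.0987) and both Sema6d forms (0.148 and 0.0928). Depth limits the splicing values, since 76 of 227 member events had under 20 junction counts per library and 81 more had too few counts of 1 form.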

Other observations

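Sema3b and Sema3f, secreted semaphorins that did not pass the test, spread more between libraries of a group than between the groups. Sema3b stood at 9.43, 5.001 and 19.3 CPM in control replicates 1 to 3 and at 28.9, 8.36 and 8.82 CPM in L-DL KD replicates 1 to 3, and Sema3f at 5.73, 4.001 and 7.05 and 8.87, 2.19 and 2.86 CPM. Summed markers of choroid plexus and ependyma were at 1681, 453 and 4515 CPM in the same controls and at 5085, 163 and 67.8 CPM in the same libraries labelled L-DL KD. All 3 measures were highest in control replicate 3 and L-DL KD replicate 1 of their groups. The part of choroid plexus in the values of Sema3b and Sema3f was not tested.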
